A study of Mus musculus with 8 samples.

Results

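The 10 genes followed here carry glucose into the cell and through glycolysis, and were measured in mouse splenic monocytes: the transporter gene Slc2a1, the hexokinase genes Hk1, Hk2 and Hk3, and the enzyme genes Pfkl, Aldoa, Tpi1, Pgk1, Pkm and Ldha. They were taken by symbol from the count table. Of 56748 listed genes, 11 rows matched the 10 symbols, because Aldoa names a second gene model (ENSMUSG00000114515) that held 3 counts in KO 1 and 0 in the other libraries. That row failed the filter on low counts, so that 10 rows, 1 per symbol, were among the 11222 genes tested. The knockout group (KO) held 4 libraries from mice that lack Olfr2, an olfactory receptor gene, and the wild-type group (WT) held 4. Both groups were Ly6Chigh monocytes, the classical inflammatory monocytes, sorted by flow cytometry from spleen at day 7 after induction of an aneurysm. The labels give no allele, strain, age or sex, no agent of aneurysm induction, and no statement that each library came from 1 animal. The p-values therefore measure the spread between these libraries, which may in part be technical.

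Glycolysis splits glucose into pyruvate in the cytosol and yields a little ATP without oxygen. Glucose enters through transporters of the SLC2A family and is trapped by hexokinase as glucose 6-phosphate; phosphofructokinase then commits it to the pathway. Aldolase, triose phosphate isomerase, phosphoglycerate kinase and pyruvate kinase carry out later steps, and lactate dehydrogenase turns pyruvate into lactate to restore NAD+. Inflammatory monocytes and macrophages are known to raise glycolysis on activation, with the hypoxia-inducible factor HIF-1 as one known activator of several of these genes. Transcript levels are not fluxes, and these libraries measured RNA only.

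Total counts lay between 17258427 and 21728794 in the KO libraries and between 16111725 and 19048245 in the WT libraries. The 11 rows took 0.343% to 0.390% of the counts in KO and 0.304% to 0.362% in WT. Olfr2 had 0 counts in 8 of 8 libraries, which allows up to 0.139 to 0.186 CPM (3 counts per library, counting error only), so it could not check the genotype labels. All 10 classical monocyte markers were detected, with 0 past the threshold (an edgeR adjusted p of 0.05 for KO against WT), and Ly6c2 lay between 4727 and 6378 CPM in KO and between 4058 and 4889 CPM in WT. Here CPM is the count scaled to the library's TMM-adjusted total. Another of them, Chil3, lay between 17380 and 44050 CPM in KO and between 6823 and 12300 CPM in WT (edgeR adjusted p = 0.0786). Of 10 nonclassical monocyte markers 9 were lower in KO and 1, Pou2f2, passed (log2 change -3.76, edgeR adjusted p = 0.0170). T cell markers summed to 0.839 to 1.44 CPM in KO and 0.462 to 1.18 CPM in WT, while the B cell list reached 204 to 362 CPM in KO and 181 to 372 CPM in WT, mostly from Ighm, with Pax5 at 0 in every library. KO 1 and KO 2 stood apart: the 12 neutrophil markers summed to 2393 and 3704 CPM there, to 814 and 629.5 CPM in KO 3 and KO 4, and to between 292 and 618 CPM in WT. Outside KO 1 and KO 2 most of this sum was Mmp8, at 638 and 515 CPM in KO 3 and KO 4 and 229.5 to 524 CPM in WT. Camp had 64.5 and 42.6 CPM and Ngp 108 and 86.8 CPM in KO 1 and KO 2. Both stayed at or under 0.187 CPM in KO 3 and KO 4 and at or under 1.54 CPM in WT. Csf3r did not stand apart, with 29.4 and 31.8 CPM in KO 1 and KO 2 and 20.7 to 49.5 CPM in the other libraries. Of the 12 neutrophil markers 5 were tested and 0 passed, and 0 were at 0 in all libraries. Granulocyte-monocyte progenitor markers summed to 158 and 245 CPM in KO 1 and KO 2 and to 39.05 and 24.6 CPM in KO 3 and KO 4. Their sum was 29.6 to 44.9 CPM in WT, with 0 of 4 tested past the threshold. Cell cycle markers summed to 451, 826, 374 and 131 CPM in KO 1 to 4, against 46.3, 183, 62.4 and 42.3 CPM in WT 1 to 4. Of these markers 13 of 13 were higher in KO, with a median log2 change of 2.66, and 1 was past the threshold. At an unadjusted edgeR p under 0.05, 13 of 13 were higher in KO, beside 8.93% of all tested genes. Conventional dendritic cell markers summed to 90.8, 68.9, 480.4 and 443 CPM in KO 1 to 4, against 179.9 to 399 CPM in WT, with 0 of 3 tested past the threshold. Most of that sum was Cd209a, at 69.9, 51.2, 460.4 and 423 CPM in KO and 159 to 382 CPM in WT, while Xcr1, Clec9a and Zbtb46 stayed at or under 0.604 CPM. Plasmacytoid dendritic cell markers summed to 97.25 to 145.4 CPM in KO and 188.7 to 229.2 CPM in WT. Most of this was Bst2, which passed (log2 change -0.71, edgeR adjusted p = 0.0377), while Siglech was at 0 in every library. The part of these marker levels in the results was not tested.

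Promoter sequences of Ldha, Pgk1, Hk2 and Tpi1 are shown because Ldha was the most abundant of the 10 transcripts, Pgk1 and Hk2 had the smallest p-values in opposite directions, and Tpi1 held no match to the motif. Each runs from 250 bases before to 50 bases after a RefSeq start on GRCm38.p6, 5′ to 3′ on the gene's strand. Capitals mark ACGTG and GCGTG on either strand (CACGT and CACGC when read on the printed one), the core that HIF-1 is known to bind. CACGTG holds ACGTG on both strands and is also the E-box core.
Ldha, chr7:46845554-46845853, plus strand: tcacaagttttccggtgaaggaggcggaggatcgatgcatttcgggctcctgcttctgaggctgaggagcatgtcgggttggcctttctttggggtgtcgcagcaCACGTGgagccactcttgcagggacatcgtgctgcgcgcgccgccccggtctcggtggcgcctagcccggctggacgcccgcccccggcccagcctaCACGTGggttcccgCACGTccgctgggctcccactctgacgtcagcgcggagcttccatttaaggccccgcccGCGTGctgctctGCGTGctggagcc
Pgk1, chrX:106186850-106187149, plus strand: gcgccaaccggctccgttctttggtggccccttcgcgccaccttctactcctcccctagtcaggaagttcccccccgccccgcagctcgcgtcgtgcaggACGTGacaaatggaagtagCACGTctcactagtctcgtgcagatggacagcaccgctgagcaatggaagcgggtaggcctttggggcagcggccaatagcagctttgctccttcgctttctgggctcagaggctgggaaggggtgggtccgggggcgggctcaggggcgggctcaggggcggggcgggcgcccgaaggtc
Hk2, chr6:82774405-82774704, minus strand: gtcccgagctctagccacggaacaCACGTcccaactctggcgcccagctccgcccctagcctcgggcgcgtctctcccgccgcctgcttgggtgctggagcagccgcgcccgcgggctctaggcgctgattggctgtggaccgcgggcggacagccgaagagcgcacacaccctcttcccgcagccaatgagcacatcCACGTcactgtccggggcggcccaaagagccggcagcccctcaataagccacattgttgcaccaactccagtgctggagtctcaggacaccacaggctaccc
Tpi1, chr6:124814109-124814408, minus strand: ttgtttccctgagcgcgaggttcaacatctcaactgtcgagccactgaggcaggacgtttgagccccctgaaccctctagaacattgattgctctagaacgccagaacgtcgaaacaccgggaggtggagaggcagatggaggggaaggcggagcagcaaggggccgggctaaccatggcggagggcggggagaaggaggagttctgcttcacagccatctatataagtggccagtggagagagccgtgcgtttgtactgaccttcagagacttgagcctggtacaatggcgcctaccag
RefSeq listed 15 starts for the 10 genes, and all 10 symbols matched. Either core occurred in 11 of these 15 promoters, against 43.77% of 32851 mouse promoters of the same length, and in at least 1 promoter of 9 of 10 genes, against 46.73% of 27025 genes. ACGTG alone was in 9 of 15, against 19.62% of all promoters, and CACGTG was in 1, the first Ldha promoter, against 7.15%. The Aldoa promoters starting at 126799129 and 126799205 overlap and share 1 CACGT, which was counted in both. The 10 genes had 15 starts where the 27025 genes had 32851, and a gene with more starts can match more easily. A match describes the letters only. The promoters of Pgk1 and Hk2 each held ACGTG at 2 places. Whether such matches bear on the levels in KO or WT was not tested.

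To set genes side by side, counts were divided by exon length and scaled to one sum per library (TPM). Ldha, whose product makes lactate, was the most abundant with a mean of 690 TPM over the 8 libraries (range 625 to 747). Pkm, the pyruvate kinase gene, followed with 423 TPM, and the aldolase gene Aldoa with 410.1 TPM. Tpi1, for triose phosphate isomerase, had 211 TPM and Pgk1, for phosphoglycerate kinase, 202 TPM. Within the chosen set a gap then separated these 5 later-step enzymes from the rest: Pgk1 exceeded Hk3 by 8.96 to 20.5 times within a library. Genes of the same pathway outside the set did not all keep to this gap. The transporter gene Slc2a6 averaged 62.3 TPM and Gpi1, for the isomerase after hexokinase, 53.8 TPM, both inside it. The later-step gene Gapdh, which has many near-identical copies, averaged 1.06 TPM. The later-step genes Pgam1 (155 TPM), Ldhb (89.7 TPM) and Eno3 (19.0 TPM) also lay inside the gap. Pfkp (7.61 TPM) and the enolase gene Eno1 (505 TPM) did keep to it. Eno1 and Pgam1 have near-identical copies too, with listed counts of 3.94% and 1.03% of the gene's own. Ldhb and Eno3 were picked out after their values were seen. Hk3 averaged 14.5 TPM and Slc2a1, which encodes the glucose transporter GLUT1, 13.02 TPM. Pfkl, the liver-type phosphofructokinase, averaged 4.55 TPM, Hk2 1.46 TPM and Hk1 0.646 TPM.

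Some neighbours in this order could not be separated. Pkm lay above Aldoa, Tpi1 above Pgk1 and Hk3 above Slc2a1 in 6 of 8 libraries each, and Hk2 above Hk1 in 7 of 8. The other neighbouring pairs kept their order in 8 of 8. With the longest transcript as the length, the means were 1009 TPM for Ldha, 698 TPM for Pkm, 618 TPM for Aldoa, 291 TPM for Tpi1, 6.54 TPM for Pfkl, 1.27 TPM for Hk2 and 1.03 TPM for Hk1. By mean TPM, Ldha ranked 197 of 52073 genes with a length and Hk1 9834.

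The comparison of KO with WT asked whether loss of Olfr2 went with a change in these transcripts. With edgeR's quasi-likelihood test and p-values adjusted by Benjamini-Hochberg over the 11222 genes, 0 of the 10 came under 0.05, as against 1.06% of all tested genes (119; 0.223% higher and 0.838% lower in KO). The split of these calls turned in some settings, with 143 higher and 101 lower in KO under the replicate block. DESeq2 called 1 of the 10, Hk2, where it called 6.99% of all tested genes, and limma-voom called 0 of all. At an unadjusted p under 0.05, 2 of 10 members differed, Pgk1 higher and Hk2 lower in KO, beside 20.9% of all tested genes (8.93% higher and 12.0% lower). The KO and WT libraries did not overlap for 1 of 10, Hk2, beside 11.4% of all tested genes (5.35% higher and 6.06% lower in KO). The median log2 change (KO minus WT) of the 10 was 0.11, beside -0.0038 over all tested genes, with 6 of 10 above 0, against 49.6% of all tested genes. In bulk RNA of a sorted population, a change in the mix of cells and a change in RNA per cell cannot be told apart.

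**Figure D1:**
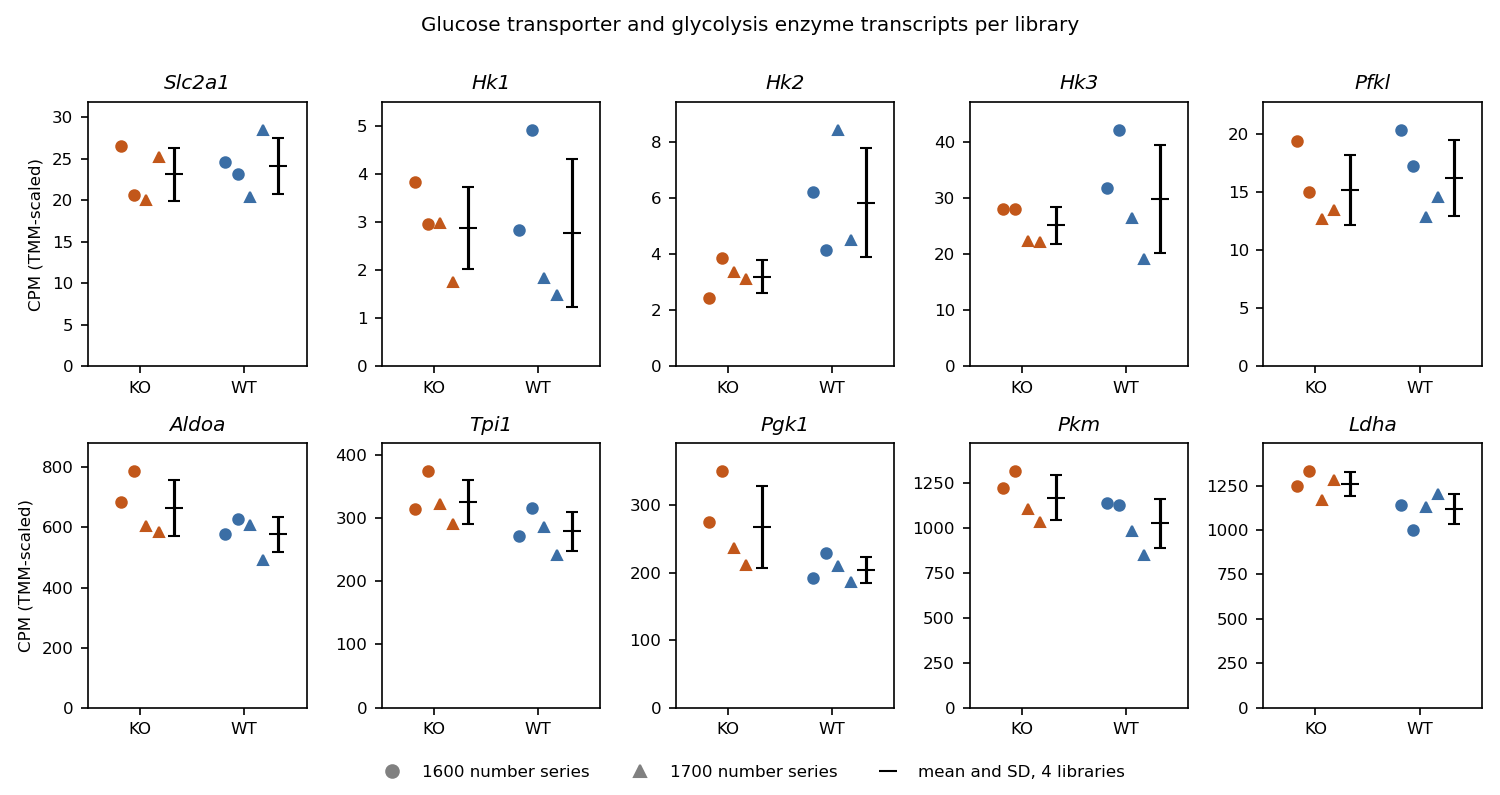
TMM-scaled counts (CPM) of each gene in pathway order, with KO libraries left and WT libraries right; circles are the 1600 and triangles the 1700 column number series, and bars give mean and SD of 4 libraries. Only Hk2 has all 4 KO libraries (2.46 to 3.88 CPM) below all 4 WT libraries (4.17 to 8.43 CPM), and KO 2 holds the highest value of Aldoa, Tpi1, Pgk1, Pkm and Ldha.

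Glucose entry was measured by Slc2a1 (GRCm38 chromosome 4, 119108711 to 119137983, plus strand). Its level was 26.5, 20.6, 20.1 and 25.3 CPM in KO 1 to 4, against 24.6, 23.1, 20.4 and 28.4 CPM in WT 1 to 4. The groups overlapped over nearly their whole range, with WT 4 highest and KO 3 lowest. The log2 change was -0.06 ± 0.15 (SE; edgeR adjusted p = 0.849), and its 95% interval ran from 0.761-fold to 1.21-fold of WT. Among hexose transporters Slc2a1 was not the most abundant: it made up 15.4% to 24.1% of the summed TPM of Slc2a1, Slc2a3 and Slc2a6 in KO and 10.5% to 22.9% in WT, with most of the rest from Slc2a6. Slc2a6 had 87.3 ± 15.2 CPM in KO and 120.2 ± 29.8 CPM in WT (SD, n = 4 each; edgeR adjusted p = 0.166), and was picked out after its values were seen. Slc2a3, the gene of the high-affinity transporter GLUT3, stayed under the filter, at 0.185 to 0.650 CPM in KO and 0.206 to 0.687 CPM in WT.

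The hexokinases trap glucose in the cell, and 3 of their genes were detected at very different levels. Hk2 (chromosome 6, 82725025 to 82774454, minus strand), an isoform known to be inducible in many tissues, had 41, 63, 72 and 67 raw counts in KO 1 to 4, against 121, 85, 156 and 73 in WT 1 to 4. Scaled, this was 2.46, 3.88, 3.36 and 3.11 CPM in KO, against 6.22, 4.17, 8.43 and 4.53 CPM in WT. Every KO library lay below every WT library, though KO 2 and WT 2 were close together. The means were 3.20 ± 0.590 CPM in KO and 5.84 ± 1.95 CPM in WT (SD, n = 4 each). KO was at 0.549-fold of WT (log2 -0.87 ± 0.25 SE), with a 95% interval of 0.376-fold to 0.801-fold.

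This difference in Hk2 did not pass over all genes (edgeR adjusted p = 0.0944, unadjusted p = 0.00443), and its adjusted p ranged from 0.0233 to 0.299 over 20 alternatives. It passed in 3 of them: with DESeq2 (adjusted p = 0.0360), with no filter on low counts in edgeR (adjusted p = 0.0233), and in edgeR without WT 2 (adjusted p = 0.0454, log2 change -0.996). In these settings 6.99%, 3.50% and 4.50% of all genes tested passed. The direction held in all 20, from -1.01 to -0.63. The smallest change came with offsets for transcript length and GC content (-0.63, edgeR adjusted p = 0.201). Without WT 3, the library with the most Hk2, it was nearly as small (-0.63, edgeR adjusted p = 0.227).

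Hk3, the hexokinase typical of myeloid cells, was by far the main isoform. It had 28.0, 28.0, 22.3 and 22.2 CPM in KO 1 to 4, against 31.7, 42.1, 26.5 and 19.2 CPM in WT 1 to 4. The lowest and the highest library were both WT, and the groups overlapped. The log2 change was -0.25 ± 0.21 (SE; edgeR adjusted p = 0.515). Without WT 2, the highest library, it was -0.04 (edgeR adjusted p = 0.930), and without WT 4, the lowest, -0.41 (edgeR adjusted p = 0.240). Over 20 alternatives the change ran from -0.42 to -0.04, with adjusted p-values of 0.240 to 0.936. Hk1, the housekeeping isoform, had 3.83, 2.95, 2.99 and 1.76 CPM in KO, against 2.83, 4.91, 1.84 and 1.49 CPM in WT. These values rest on 24 to 100 raw counts, and the sign of the log2 change (0.04 ± 0.36 SE; edgeR adjusted p = 0.958) depended on which libraries entered. The antisense gene Hk1os overlaps Hk1 and averaged 27.9 counts beside 53.4 for Hk1, so that reads of the pair may be mixed, since the strand setting of the counting is not given.

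Per length, Hk3 made up 89.8%, 88.4%, 86.9% and 89.2% of the hexokinase TPM in KO 1 to 4, against 86.2%, 90.0%, 81.5% and 84.8% in WT 1 to 4. The Hk2 share was 4.855%, 7.54%, 8.07% and 7.71% in KO, against 10.4%, 5.50%, 16.0% and 12.4% in WT. WT 2 had both the highest Hk3 share and the lowest Hk2 share among WT libraries, so that the groups overlapped in each share. The summed hexokinase level was 15.6, 14.9, 13.9 and 13.04 TPM in KO, against 20.9, 27.1, 16.1 and 11.6 TPM in WT, and the KO libraries fell inside the wider WT range.

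**Figure D2:**
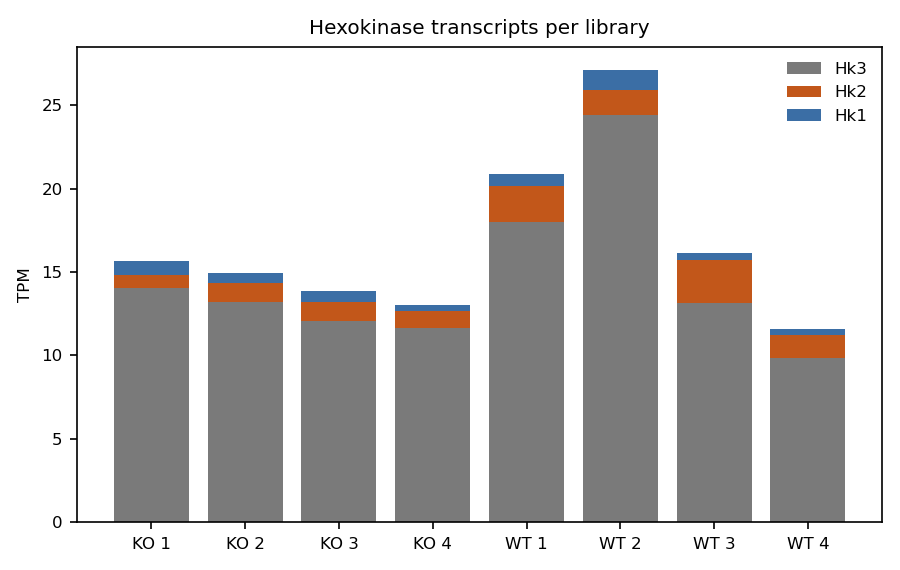
Hexokinase transcripts in TPM, stacked per library with Hk3 at the bottom, Hk2 in the middle and Hk1 on top; KO libraries are left and WT libraries right. Hk3 fills 81.5% to 90.0% of each bar, and the WT bars range from 11.6 to 27.1 TPM around the KO bars of 13.04 to 15.6 TPM.

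Pfkl, which encodes a subunit of phosphofructokinase, the committed step, had 19.4, 15.0, 12.7 and 13.4 CPM in KO 1 to 4, against 20.3, 17.2, 12.9 and 14.5 CPM in WT 1 to 4. KO and WT libraries interleaved, with the first library of each group highest. The log2 change was -0.10 ± 0.19 (SE; edgeR adjusted p = 0.792), with an interval of 0.706-fold to 1.23-fold. Its sign turned to 0.13 with the length and GC offsets (edgeR adjusted p = 0.712; range over 20 alternatives 0.498 to 0.964). Pfkl held 28.0% to 42.5% of the summed TPM of Pfkl, Pfkm and Pfkp in KO and 34.0% to 41.1% in WT. Pfkp, the platelet-type isoform, was picked out after its values were seen. It had 56.5 ± 6.25 CPM in KO and 48.6 ± 10.3 CPM in WT (SD, n = 4 each; edgeR adjusted p = 0.448).

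The 5 enzymes that follow were all a little above WT in mean level, and none passed. Aldoa (chromosome 7, 126795234 to 126800751, minus strand), which cleaves fructose 1,6-bisphosphate, had 685, 787, 604 and 584 CPM in KO 1 to 4, against 579.5, 627, 607 and 493 CPM in WT 1 to 4. Tpi1, which interconverts the resulting trioses, had 314, 374, 323 and 290.3 CPM in KO, against 271, 316, 287 and 242 CPM in WT. In both genes KO 2 was highest and WT 4 lowest, with the other libraries overlapping. The log2 changes were 0.21 ± 0.13 for Aldoa and 0.22 ± 0.12 for Tpi1 (SE; edgeR adjusted p = 0.374 and 0.314).

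Pgk1 (chromosome X, 106187100 to 106203699, plus strand), whose enzyme makes the first ATP of the pathway, had the largest positive change of the 10. It reached 275, 351, 237 and 211 CPM in KO 1 to 4, against 192, 229.7, 209.6 and 186 CPM in WT 1 to 4. KO 1 and KO 2 stood above the other libraries, KO 3 was just above WT 2, and KO 4 fell within the WT range. The means were 268 ± 60.7 CPM in KO and 204 ± 19.7 CPM in WT (SD, n = 4 each). This log2 difference of 0.39 ± 0.15 (SE) had an unadjusted p of 0.0212 and an adjusted p of 0.165 with edgeR. The 95% interval ran from 1.05-fold to 1.65-fold. Without KO 1 and KO 2 together the log2 change was 0.14 (edgeR adjusted p = 0.654), against 0.39 with all libraries. That setting sets KO of 1 column number series against WT of both, so genotype and series are mixed in it. The change was 0.38 without KO 1 alone and 0.24 without KO 2 alone (edgeR adjusted p = 0.228 and 0.409). Over 20 alternatives the adjusted p of Pgk1 ranged from 0.0844 to 0.654.

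Pkm, whose enzyme makes pyruvate and the second ATP, had 1221, 1315, 1104 and 1033 CPM in KO 1 to 4, against 1142, 1126, 984 and 849 CPM in WT 1 to 4. Again KO 2 was highest and WT 4 lowest, while KO 3 and KO 4 lay below WT 1 and WT 2. The log2 change was 0.19 ± 0.13 (SE; edgeR adjusted p = 0.418). Gene counts do not separate the M1 and M2 splice forms of pyruvate kinase. Ldha had 1248, 1329, 1169 and 1281 CPM in KO, against 1138, 998, 1131 and 1203 CPM in WT. Only KO 3 lay inside the WT range, below WT 4. The change was 0.17 ± 0.11 (SE; edgeR adjusted p = 0.384), with an interval of 0.958-fold to 1.32-fold. Ldha was the least variable of the 10, with a coefficient of variation of 8.70% over the 8 libraries, against 42.9% for Hk2.

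The summed level of these 5 genes was 3742, 4156, 3436 and 3399 CPM in KO 1 to 4, against 3323, 3296, 3219 and 2972 CPM in WT 1 to 4. The groups did not overlap in CPM, though the grouping was made after the values were seen and carries no test. The TMM factors were 0.969, 0.925, 1.01 and 0.992 in KO 1 to 4, against 1.06, 1.07, 0.975 and 1.00 in WT 1 to 4. A lower factor raises CPM. Without these factors, the share of all counts in the 11 rows was 0.370%, 0.390%, 0.3545% and 0.343% in KO 1 to 4. In WT 1 to 4 it was 0.361%, 0.362%, 0.320% and 0.304%, so that the groups overlapped. In CPM, KO 2 was highest in each of the 5 genes. In TPM it was highest for Aldoa and Pgk1 only, with WT 2 highest for Pkm (481 against 456) and Tpi1 (245 against 236). KO 4 was highest in TPM for Ldha (747 against 697 in KO 2). KO 2 also had the highest sums of neutrophil and cell cycle markers, and the part of these markers in the levels was not tested. Without KO 1 and KO 2 the log2 changes of the 5 lay between 0.05 for Aldoa and 0.15 for Tpi1, with edgeR adjusted p-values of 0.627 to 0.877. That setting sets KO of the 1700 series against WT of both series, so genotype and series are mixed in it. Within the 1700 series alone the changes were 0.22 for Pkm, 0.21 for Tpi1, 0.18 for Pgk1, 0.11 for Aldoa and 0.07 for Ldha, with edgeR adjusted p-values of 0.403 to 0.795. With length and GC offsets they were larger for Pkm (0.41) and Aldoa (0.36) and smaller for Pgk1 (0.26) and Ldha (0.08), with edgeR adjusted p-values of 0.131, 0.150, 0.365 and 0.706.

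**Figure D3:**
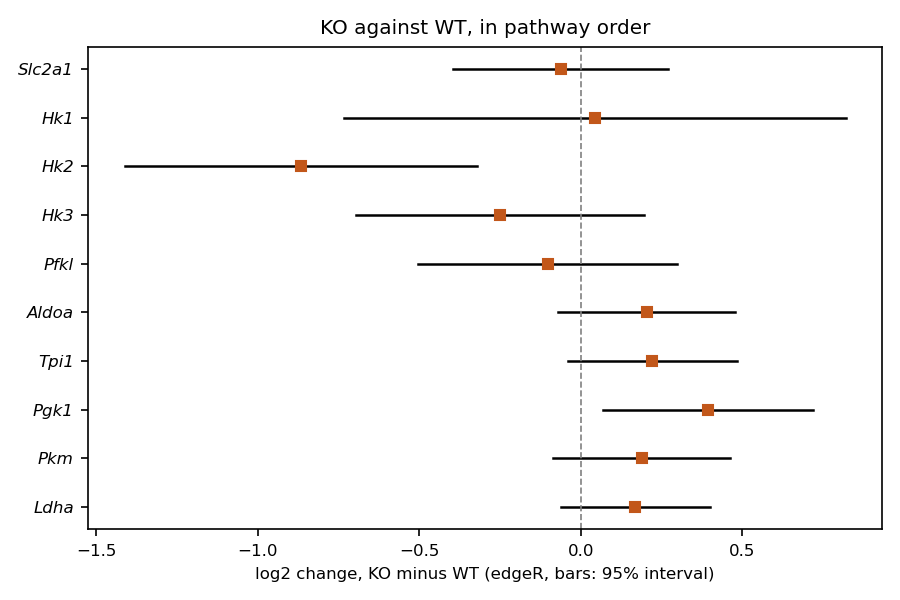
Log2 change of each gene, KO minus WT, from edgeR in pathway order; squares are estimates and bars 95% intervals from the fit, and the dashed line marks no change. Slc2a1, Hk1, Hk3, Pfkl, Aldoa, Tpi1, Pkm and Ldha have intervals that include 0, while the unadjusted interval of Hk2 (-1.41 to -0.32) lies below 0 and that of Pgk1 (0.07 to 0.72) above it.

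Ldha, Pgk1, Pkm and Tpi1 shared at least 200 bases at 95% identity or more with 1 to 4 other annotated genes, mostly annotated pseudogenes. The counts listed for those copies came to 0.052% of the Ldha count and at most 0.965% of the gene's own, in Pkm. Pgk1 shares 1255 bases at 100% identity with Pgk1-rs7, which had a mean of 30.4 counts. Reads that match a gene and its copy equally may have been dropped before counting, so these counts do not show how many reads were shared.

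Replicates 1 and 2 of each genotype have column numbers in the 1600s and replicates 3 and 4 in the 1700s; what separates these number series is not stated in the labels. Within each series both Hk2 values of KO lay below both of WT, by -0.70 in the 1600 series and -0.91 in the 1700 series on the log2 scale (SE 0.43 each). Both KO values of Pkm and Pgk1 lay above both WT values in each series. This made 3 of 10 genes separated the same way in both series on the TMM-scaled values, beside 18.5% of all tested genes. In TPM, which does not use the TMM factors, Pkm went the other way in the 1600 series. It had 451 and 456 TPM in KO 1 and KO 2, against 477 and 481 TPM in WT 1 and WT 2. For Pgk1 the difference was 0.56 in the 1600 series and 0.18 in the 1700 series, each with an SE of 0.18 from the pooled spread. The genotype difference itself did not differ between the series past the threshold in any of the 10 (edgeR interaction term, adjusted p 0.419 to 0.985), where 0.784% of all tested genes passed.

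Between the series, with genotype in the model, 8 of the 10 were lower in the 1700 series, where 47.4% of all tested genes were higher, a comparison added after the values were seen. Hk3 averaged 22.6 ± 3.00 CPM in the 1700 series and 32.5 ± 6.63 CPM in the 1600 series (SD, n = 4 each). On the log2 scale this was -0.51 ± 0.16 (SE), with an edgeR adjusted p of 0.906. For Hk3, Pfkl and Pkm every library of the 1700 series lay below every library of the 1600 series, 3 of 10, where 1.97% of all tested genes separated in either direction. In the same model 4 of 10 had an unadjusted p under 0.05 (Hk1, Hk3, Pfkl and Pkm), against 5.20% of all tested genes. None of the 10, and 0 of 11222 genes, passed after adjustment with edgeR, and limma-voom called 0.

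**Figure D4:**
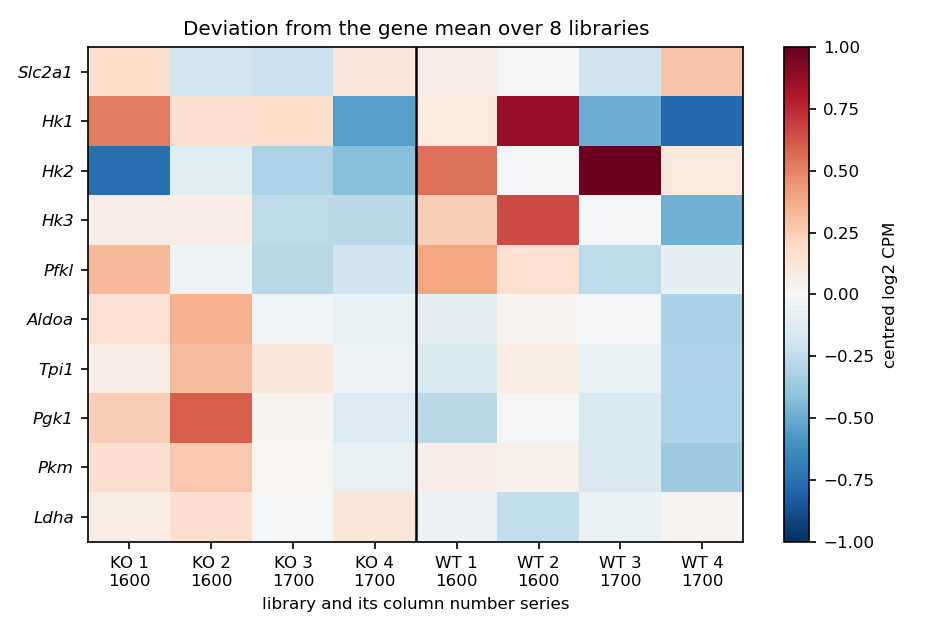
Deviation of each gene's log2 CPM from its own mean over the 8 libraries, in pathway order down the page, with KO libraries left of the black line and WT libraries right of it and the column number series under each. Pgk1 is highest in KO 2 (0.60), Hk2 is highest in WT 3 (0.98) and lowest in KO 1 (-0.75), and Hk3 and Hk1 are highest in WT 2 (0.65 and 0.87).

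The mean profile of the 10 genes stood at 0.10, 0.16, -0.08 and -0.16 in KO 1 to 4 and 0.09, 0.15, -0.04 and -0.23 in WT 1 to 4 (centred log2 CPM). It was above 0 in all 4 libraries of the 1600 series and below 0 in all 4 of the 1700 series. Single genes did not all follow this. In WT 1, Ldha, Aldoa, Tpi1 and Pgk1 were below 0 (-0.06 to -0.27) and the other genes above it, with Hk2 highest (0.55). In WT 2, Hk1 (0.87) and Hk3 (0.65) were highest and Ldha was lowest (-0.25). Pkm followed the mean profile most closely, with a root mean square difference of 0.095 over 8 libraries, and Hk2 least, with 0.54. Among other genes with an official symbol, those most alike included Gtf2h3, Rcbtb2, Bysl and Rnf113a1, with differences of 0.05 to 0.08, beside a median of 0.33 over all tested genes. Nothing about function follows from such closeness.

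The rest of glucose metabolism was read from 8 lists with 105 genes, of which 104 were in the table and 77 were tested. In total 0 of 77 passed (edgeR), 14 had an unadjusted p under 0.05, and 9 did not overlap between KO and WT, 6 higher and 3 lower in KO. These shares lie near the 20.9% and 11.4% of all tested genes. DESeq2 called 2 of the 77, Pgam1 and Ugp2, a smaller share than its 6.99% of all tested genes, and limma-voom 0.

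Other glycolysis enzymes numbered 11 tested of 17, with 0 past the threshold in either direction and a median log2 change of -0.11. Gpi1, the isomerase after hexokinase, had 187 ± 16.5 CPM in KO and 173 ± 6.90 CPM in WT (SD, n = 4 each; edgeR adjusted p = 0.565). Eno1, the enolase gene, had 1456 ± 81.4 CPM in KO and 1360.0 ± 114 CPM in WT (edgeR adjusted p = 0.636). Pgam1, the mutase between Pgk1 and enolase, had 183, 192.5, 172 and 161 CPM in KO 1 to 4, against 151, 143, 132 and 140.0 CPM in WT 1 to 4. Every KO library was above every WT library, by 0.32 ± 0.11 (SE) on the log2 scale, with an adjusted p of 0.124 with edgeR and 0.0491 with DESeq2.

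Regulators of the pathway, 17 tested of 20, had 0 past the threshold and a median of -0.16, with 13 below 0 and 4 above. Hif1a, the oxygen-regulated HIF-1 subunit, had 46.5 ± 10.01 CPM in KO and 40.0 ± 17.8 CPM in WT (SD, n = 4 each; edgeR adjusted p = 0.728). Pfkfb3, whose enzyme makes the activator of phosphofructokinase, had 4.80 ± 1.40 CPM in KO and 6.48 ± 0.868 CPM in WT (edgeR adjusted p = 0.292). Myc, a growth regulator that drives glycolytic genes, stayed under the filter, at 0.062 to 0.701 CPM in KO and 0.108 to 0.540 CPM in WT. The list of other hypoxia targets had 10 tested of 16, 0 past the threshold, and a median of 0.02.

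Genes for the fate of pyruvate and lactate had 15 tested of 17, 0 past the threshold and a median of 0.08. The pentose phosphate list had 8 of 8 tested, 0 past the threshold and a median of -0.07. Its most abundant member, Taldo1, had 1965 ± 290.7 CPM in KO and 1817 ± 226 CPM in WT (SD, n = 4 each; edgeR adjusted p = 0.666). Glycogen genes had 10 tested of 11, 0 past the threshold and a median of 0.15. The smallest p among the 77 was that of Ugp2, which makes UDP-glucose, with 129 ± 5.15 CPM in KO and 97.9 ± 11.0 CPM in WT (SD, n = 4 each; log2 change 0.40 ± 0.11 SE; edgeR adjusted p = 0.0882, DESeq2 adjusted p = 0.0224). Ugp2 and Taldo1 were picked out after their values were seen. The hexose transporter and gluconeogenesis lists had 3 tested genes each, 0 past the threshold, and medians of -0.46 and -0.07.

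**Figure D5:**
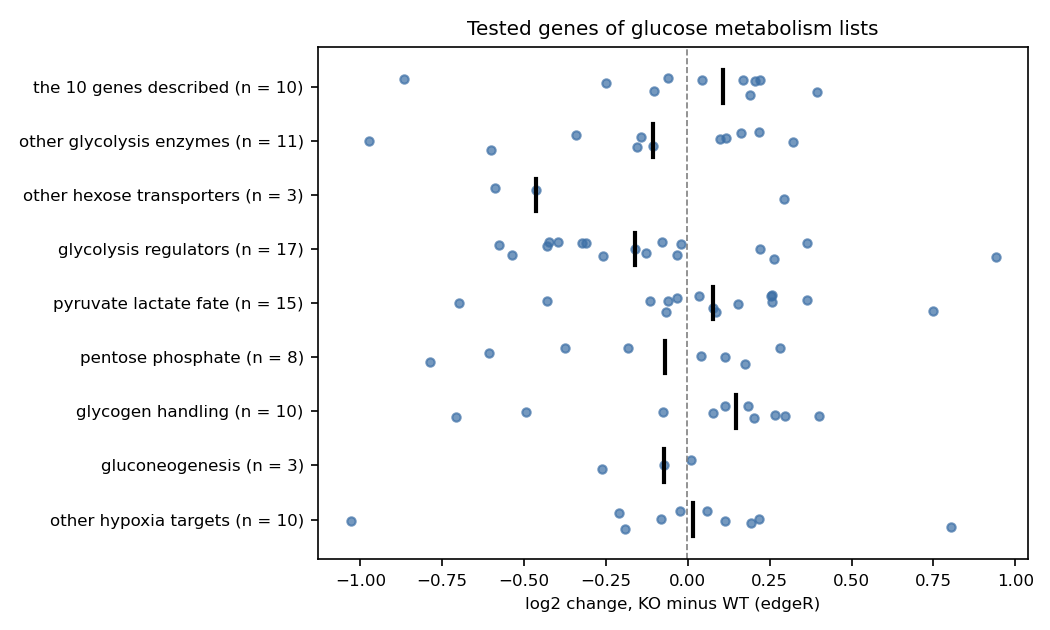
Log2 change, KO minus WT, of each tested gene in the 10 genes described (top row) and in 8 further lists of glucose metabolism; points are genes, black bars medians, and the dashed line is the median of all tested genes (-0.0038). List medians lie between -0.46 for the 3 hexose transporters and 0.15 for the 10 glycogen genes, and no gene shown passed an adjusted p of 0.05 with edgeR.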

How the data were processed

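Poly(A) RNA of 8 libraries was copied with oligo-dT primer and template switching (SMART-Seq v4) and amplified, per the labels' protocols. The authors deposited raw counts per gene; per the submitters' processing notes the tools were HISAT2 2.0.5 and featureCounts 1.5.0-p3 and the build GRCm38. The strand setting was not given in the sources used here. The labels name no molecular identifiers, so counting intervals treat PCR duplicates as separate molecules.

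After a check on simulated counts, genes were tested with edgeR 4.0.16 in R 4.3.3 (filterByExpr, TMM, robust quasi-likelihood, Benjamini-Hochberg at 0.05 over 11222 genes), with 4 KO and 4 WT libraries. SEs were derived from the F statistic, and profiles used log2 CPM with a prior count of 2. Lengths, GC content and coordinates came from GENCODE M21, which held 52073 of 56748 gene IDs, and promoters from RefSeq (GRCm38.p6). Copies were sought with blastn 2.17.0. Alternatives used DESeq2 1.42.0, limma 3.58.1 (voom), mgcv 1.9.3 offsets, other filters and scalings, and fewer libraries.

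The members and lists were chosen with earlier results of these data known. The rule for named genes gave the 10 members, Gapdh, Eno1, Gpi1, Pgam1, Slc2a3, Hif1a, Myc, Pfkfb3, up to 3 genes past 0.05 per list (there were none), and the 5 genes with the most similar profile, of which 1 is not reported here. Of 215 list entries, 214 matched a symbol. Marker lists of other cell types are given only where a group of libraries stood apart or a type is named.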

Additional observations from a re-analysis of the deposited data

Results flagged for a closer look

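In KO 1, Hk2 made up 4.855% of the hexokinase TPM, far from the 7.54% to 8.07% of the other 3 KO libraries. This was 1 of 26 groups of 4 values examined (each of the 10 genes and the 3 hexokinase shares in both genotypes), where chance marks about 1 group in 20. KO 1 also had the fewest Hk2 counts of all libraries, 41.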

How the results depend on the processing

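Of 200 log2 changes of single genes under alternatives (10 genes, 20 alternatives), 188 kept direction and side of the threshold, 3 passed it (Hk2, given above) and 9 changed sign, each far from the threshold. Slc2a1 ran from -0.134 to 0.0255, Pfkl from -0.240 to 0.0254 and Hk1 from -0.16 to 0.48 with 1 library left out. Pfkl was at 0.13 with length and GC offsets, and Hk1 at -0.22 without KO 1 and KO 2 and at -0.20 in the 1600 series alone. Of the 10 genes, 1 was called with no filter on low counts and 1 with DESeq2, and 0 to 1 with 1 library left out (1 without WT 2). Of the 77 further pathway genes, 3 were called with no filter (Pgls, Slc2a6 and Egln2, named after their values were seen), 2 with DESeq2, 1 in the 1700 series alone (Pgls), and 0 to 1 with 1 library left out (Pgls without KO 1). Over all genes, calls numbered 742 with no filter, 784 with DESeq2, 0 with limma-voom, 251 with the number series as covariate, 7 without KO 1 and KO 2, 1 with length and GC offsets, and 0 to 515 with 1 library left out, against 119. They numbered 0 without KO 2, KO 3, WT 1 or WT 3, 3 without WT 4, 64 without KO 1, 235 without KO 4 and 515 without WT 2. The split was 25 higher and 94 lower in KO with all libraries, 143 and 101 under the replicate block, 139 and 96 without KO 4, and 73 and 26 in the 1600 series alone. Between the number series 0 to 4 genes were called with 1 library left out (4 without WT 2). With the title number as a replicate block 244 genes and 0 of the 10 were called. Deviations of same-numbered libraries from their group's mean correlated at -0.013, -0.028, -0.049 and 0.093, so that the numbers were not taken as pairs. Over all KO and WT pairs these correlations of deviations ran from -0.147 to 0.129. The causes of these moves were not tested. With 24 to 156 counts per library, Hk1 and Hk2 are the least precise of the 10.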

Other observations

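Gapdh, which encodes the enzyme between Tpi1 and Pgk1 and is abundant in most cells, was listed at 1.68, 1.54, 1.07 and 1.67 CPM in KO 1 to 4, against 1.95, 5.94, 1.08 and 2.67 CPM in WT 1 to 4, a mean of 41.8 counts per library. In GENCODE M21, 90 other annotated genes share at least 200 bases with its transcript at 95% identity or more, 85 of them pseudogenes. Their listed counts summed to a mean of 1152 per library, more than Gapdh itself. The neighbouring steps were far higher, with Tpi1 at 242 to 374 CPM and Pgk1 at 186 to 351 CPM. Whether the low Gapdh count reflects reads lost to these copies was not tested, and its log2 change (-0.97 ± 0.44 SE; edgeR adjusted p = 0.230) should be read with that in view.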
